A study of Mus musculus with 16 samples.

Results

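The difference between the stimulation responses of CD8 and CD4 T cells was measured in Gabpa f/f mice, called WT because they carried floxed Gabpa alleles and no Cre. For each gene the change from 0 h to 18 h in CD4 cells was subtracted from the change in CD8 cells, and this quantity is called the interaction below. It was computed for all 12394 genes that the array measured with a probe set naming that gene alone, which are also all genes of the series. A positive interaction means that the log2 value rose more, or fell less, in CD8 cells, and a negative one the opposite.

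The 4 WT groups were CD4 at 0 h, CD4 at 18 h, CD8 at 0 h and CD8 at 18 h, with 2 arrays each, so that 8 of the 16 arrays of the series entered the contrast. The other 8 arrays were labelled as the same 4 groups from KO mice, which by the labels carried the floxed alleles together with CD4-Cre, a transgene expressed from the double-positive thymocyte stage and so in the precursors of both lineages. All mice were on the C57BL/6 background. Naive cells with low CD44, high CD62L and no CD25 came from sorts of spleen and lymph node cells. Some cells of each sort were lysed at once (0 h), and the others spent 18 h in culture under CD3 and CD28 antibodies with IL-2. The labels call the arrays biological replicates but give neither the age of the mice nor the mouse behind each array, so that p-values measure the spread between these arrays.

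Naive T cells rest until the T cell receptor and the costimulatory receptor CD28 are engaged together. They then leave the naive program, induce cytokines and growth genes, and begin to divide. CD4 helper cells are known as the main makers of IL-2, while CD8 cells become cytotoxic and are known to divide after a brief stimulus. Bulk arrays cannot tell a change in every cell from a change in the share of cells that responded.

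The KO label could not be checked from Gabpa itself, of whose 2 probe sets the brighter was used. Its probe set read 9.79, 9.67, 9.70 and 9.78 in the arrays labelled CD4 KO, above 9.07, 9.22, 8.99 and 9.04 in CD4 WT (0 h, then 18 h), and 9.18, 9.45, 9.50 and 9.09 in those labelled CD8 KO against 9.05, 9.34, 9.24 and 8.74 in CD8 WT. These values were not lower in the arrays labelled KO, and no source used here says whether its probes match the exons that Cre removes. The paper reports, from an immunoblot, hardly any GABPα protein in CD4 and CD8 T cells of mice of this genotype. That is a measure of protein and was not made on the RNA of these arrays. Gabpb1, which encodes a GABPβ subunit, read 8.01 to 8.55 in the arrays labelled KO and 6.14 to 7.23 in WT arrays. The arrays of the 2 labels thus did not overlap in this gene, which is no direct measure of Gabpa loss. KO below means labelled KO.

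The lineage labels held in Cd8a and Cd4. Cd8a, which encodes a chain of the CD8 co-receptor, read between 11.28 and 11.89 (log2 probe set values, as all levels below) in the 4 CD8 WT arrays. In CD4 WT arrays it read 7.56 and 5.13 at 0 h and 6.85 and 5.10 at 18 h, so that replicate 1 was the higher of each pair. Cd4 read 7.0, 7.26, 6.59 and 6.36 in the CD4 arrays in the same order and between 4.95 and 5.59 in the CD8 arrays. Other listed markers separated the lineages to unlike degrees. The CD8 minus CD4 difference at 0 h was 4.58 for Cd8b1, 3.05 for Klrd1 and 0.22 for Runx3. Of CD4 markers it was -1.58 for Zbtb7b, -0.03 for Cd40lg and 1.62 for Tnfsf8. In CD4 WT arrays at 0 h Cd8b1 read 8.52 and 7.52 and Klrd1 9.30 and 7.66, with replicate 1 again the higher. CD4 WT 0 h replicate 1 also had the highest difference between 3' and 5' control probe sets of the WT arrays, 1.58 against 0.46 to 0.82 in the others, which is a sign of RNA quality. The mean over 17 B cell markers was 5.24 in that array and 4.28 to 4.97 in the other WT arrays, and the mean over 19 myeloid and dendritic markers was 4.40 against 3.70 to 4.16. The part of these differences in the results was not tested, and values without that array are given beside the counts.

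Stimulation changed many genes in both lineages. In CD4 WT cells 1510 genes rose (12.2% of the 12394 tested) and 1740 fell (14.0%), where a gene counts as changed if its Benjamini-Hochberg adjusted p in limma was under 0.05 and its fold over 1.5. In CD8 WT cells 1017 rose (8.21%) and 868 fell (7.0%). Of these, 921 genes rose and 782 fell in both lineages, 2 rose in CD4 and fell in CD8, and 1 did the reverse. The SD of the response over all genes was 0.84 in CD4 and 0.63 in CD8 cells on the log2 scale, and both responses share their 8 arrays with the interaction.

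The interaction passed the same test for 46 genes (0.371%). It was positive for 28 (0.226%) and negative for 18 (0.145%). Its standard error (SE) had a median of 0.29 over all genes, against a median interaction of 0.03 and an SD of 0.45, so that most differences of the usual size could not be told from replicate spread with 2 arrays a group. With the 0 h and 18 h arrays of one number paired within lineage and genotype (replicate block), 114 genes were higher and 46 lower, and all 46 genes called without the block kept their call.

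The counts depended on single arrays. Higher and lower calls numbered 1 and 2 without CD4 WT 0 h replicate 1, 4 and 3 without its replicate 2, 9 and 6 without CD4 WT 18 h replicate 1 and 2 and 1 without its replicate 2. They numbered 1 and 1 without CD8 WT 0 h replicate 1, CD8 WT 0 h replicate 2 or CD8 WT 18 h replicate 1, and 77 and 22 without CD8 WT 18 h replicate 2. The KO arrays entered through the shared estimate of the spread. Without either array of CD4 KO 0 h, CD4 KO 18 h, CD8 KO 0 h or CD8 KO 18 h the counts were 10 and 5, 17 and 6, 18 and 9, and 59 and 27. Pdlim4 and Ifitm2 kept their call in all 16 of these fits. Mcoln2, Ndufaf4 and Jak2 kept theirs in none of the 8 fits that lacked a WT array, and the direction of none of the 46 genes turned in any fit run.

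The response was larger in size in CD4 cells for 42 of the 46 genes, the exceptions being Spry2, Drc1, Mcoln2 and Chst15. The 46 genes were called on the same arrays, and this share was not counted over all genes. The SD of the response over all genes was also larger in CD4 cells, 0.84 against 0.63 in CD8. An SD does not give that share, so whether it is particular to the called genes was not tested. Among the 18 genes with a negative interaction, 7 rose in both lineages, 9 rose in CD4 and passed no test in CD8, and 2 rose in CD4 and fell in CD8. Among the 28 with a positive interaction, 13 fell in both, 13 fell in CD4 and passed no test in CD8, 1 fell in CD4 and rose in CD8 (Drc1), and 1 rose in CD8 and passed no test in CD4 (Spry2).

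**Figure D1:**
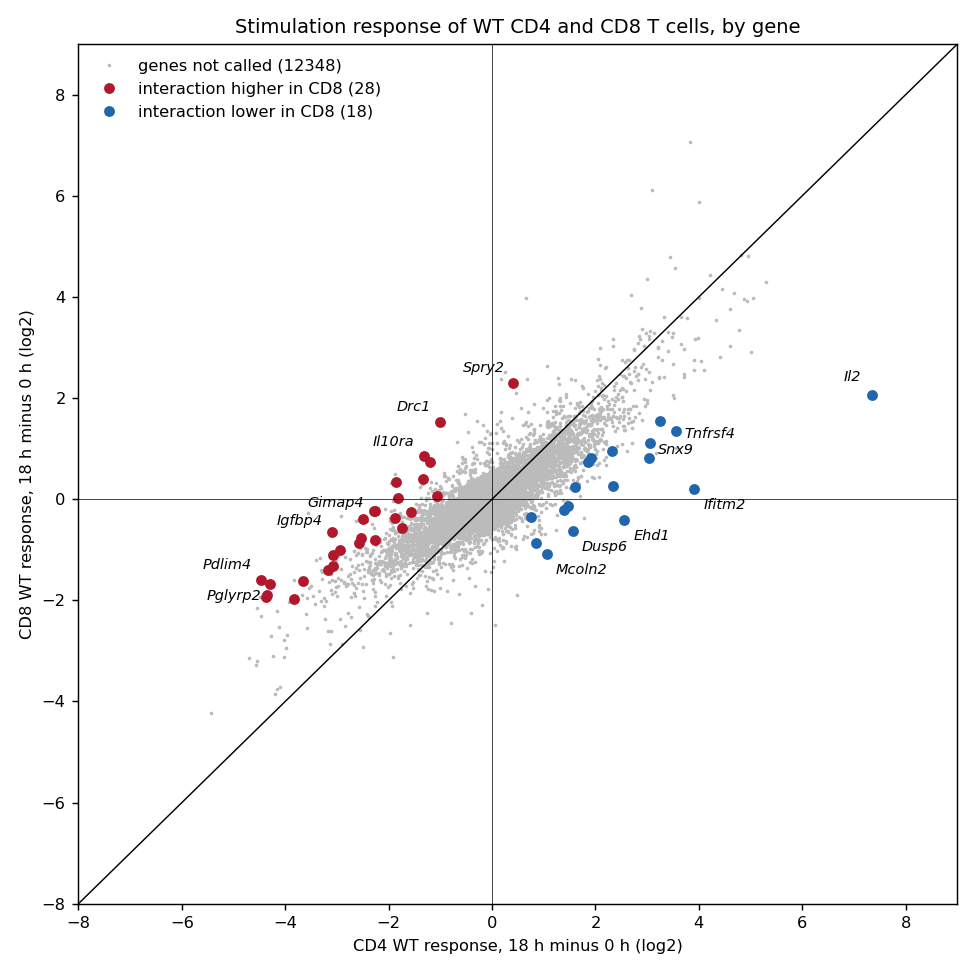
Response of each of the 12394 genes in WT cells, as 18 h minus 0 h (log2, means of 2 arrays per group), with CD4 on the horizontal and CD8 on the vertical axis and a line of equal response. The 28 genes with a higher interaction (red) lie above the line and mostly left of 0, and the 18 with a lower one (blue) lie below it and right of 0, with Il2 farthest from the line at 7.35 in CD4 and 2.06 in CD8.

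The called genes are taken below by known roles, which were assigned after the calls were seen and were not tested as groups. Il2, which encodes the main growth factor of T cells, had the most negative interaction. It read 3.76 and 4.44 in CD4 WT cells at 0 h and 11.97 and 10.92 at 18 h. In CD8 WT cells it read 4.06 and 4.1 at 0 h and 4.88 and 7.39 at 18 h, so that the lineages overlapped at 0 h, both CD4 arrays lay above both CD8 arrays at 18 h, and the stimulated CD8 arrays differed from each other by more than those of any other WT group. The response was 7.35 ± 0.71 (SE, n = 2 arrays per group) in CD4 and 2.06 ± 0.71 in CD8 cells, of which the second did not pass the test (adjusted p in limma = 0.07). The interaction was -5.29 ± 1.01 and stood just inside the threshold, with an adjusted p of 0.0494.

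Ifitm2, which encodes an interferon-induced membrane protein that limits virus entry, responded in CD4 cells alone among the WT groups. It read 3.15 and 2.74 in CD4 cells at 0 h and 6.71 and 7.02 at 18 h, against 3.43 and 2.84 and then 3.24 and 3.43 in CD8 cells. The stimulated CD4 arrays were thus above all 6 others. Its interaction was -3.72 ± 0.40 with an adjusted p of 0.00344, and it lay between -4.02 and -3.43 whichever array was left out. The probe set was named for Ifitm2 alone, but the family has close copies and cross-hybridization was not tested.

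Promoter sequences are printed for 4 called genes, because each holds letters that a factor of T cell activation, interferon or growth signalling can bind. They are the 250 bases before the RefSeq start on assembly GRCm38.p6, written 5' to 3' along the gene. In Il2 (chr3:37125955-37126204, minus strand) and Spry2 (chr14:105896820-105897069, minus strand) capitals mark GGAAAA or its reverse complement, the core bound by NFAT factors downstream of calcium and calcineurin. In Ifitm2 (chr7:140955962-140956211, minus strand) they mark the core of an interferon-stimulated response element, a pair of GAAA runs set apart by any 2 bases, which here overlaps a GGAAAA match. In Tnfrsf4 (chr4:156013445-156013694, plus strand) they mark CACGTG, the E-box that Myc with Max and other factors can bind.
Il2: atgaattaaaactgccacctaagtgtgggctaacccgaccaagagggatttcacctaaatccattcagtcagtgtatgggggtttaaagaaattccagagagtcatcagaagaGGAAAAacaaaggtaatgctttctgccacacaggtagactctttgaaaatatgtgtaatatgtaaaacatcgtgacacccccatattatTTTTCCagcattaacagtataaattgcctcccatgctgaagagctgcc
Spry2: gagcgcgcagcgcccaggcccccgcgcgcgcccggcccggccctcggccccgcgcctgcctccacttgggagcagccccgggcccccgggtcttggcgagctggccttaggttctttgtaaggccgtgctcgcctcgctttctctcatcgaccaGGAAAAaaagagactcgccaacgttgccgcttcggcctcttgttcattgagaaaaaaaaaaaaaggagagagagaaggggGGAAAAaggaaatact
Ifitm2: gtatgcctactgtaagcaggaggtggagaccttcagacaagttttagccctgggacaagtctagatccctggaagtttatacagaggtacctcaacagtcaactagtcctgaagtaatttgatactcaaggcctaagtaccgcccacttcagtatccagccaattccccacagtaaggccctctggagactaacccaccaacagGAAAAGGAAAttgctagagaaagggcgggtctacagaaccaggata
Tnfrsf4: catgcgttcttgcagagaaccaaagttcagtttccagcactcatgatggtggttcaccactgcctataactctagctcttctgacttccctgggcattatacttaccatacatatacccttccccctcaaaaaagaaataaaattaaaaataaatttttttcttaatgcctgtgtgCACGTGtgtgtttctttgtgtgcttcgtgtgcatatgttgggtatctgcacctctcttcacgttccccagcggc

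Such letters are common, so they were counted on both strands in all 32851 windows of this length. GGAAAA stood in 20.4% of all windows and in 19.0% of the windows of the genes tested. It stood in 4 of 18 windows of genes with a negative interaction (Il2, Ifitm2, Chst15 and Rilpl2) and in 3 of 31 windows of genes with a positive one (Spry2, Cnp and Rcan3). The core of the response element stood in 3.0% of all windows, in 2.7% of those of the genes tested and in 1 of 18 and 0 of 31. It stood in 13 of 37 windows of the interferon-stimulated genes described below, which are known for it. CACGTG stood in 6.0% of all windows and in 7.7% of those of the genes tested. It stood in 6 of 18 (Tnfrsf4, Slc16a1, Mcoln2 and Msi2, some with several starts) and in 3 of 31 (Lgmn, Psmb10 and Tlr1). Counted by gene, these were 4 of 14 and 3 of 23, beside 909 of 9888 genes tested. Windows were at hand for 37 of the 46 genes, and a match of letters is no evidence of binding in these cells.

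Tnfrsf4, which encodes the costimulatory receptor OX40, read 8.07 and 7.77 at 0 h and 11.40 and 11.55 at 18 h in CD4 cells. In CD8 cells it read 6.39 and 7.04 at 0 h and 7.68 and 8.44 at 18 h, a rise of 1.35 ± 0.27 against 3.55 ± 0.27 in CD4. Its interaction was -2.20 ± 0.39 (adjusted p = 0.035), and the CD4 arrays lay above the CD8 arrays at both times.

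Dusp6, which encodes a phosphatase that switches off ERK kinases, read 8.49 and 8.25, then 10.05 and 9.80 in CD4 cells, and 8.47 and 8.94, then 7.63 and 8.52 in CD8 cells. The lineages overlapped at 0 h and stood apart at 18 h, and the interaction was -2.19 ± 0.39 (adjusted p = 0.0377). Jak2, a kinase of cytokine receptors, had the smallest negative interaction of those called, at -1.09 ± 0.20. It read 9.63 and 9.64 at 0 h and 10.31 and 10.46 at 18 h in CD4 cells and 9.43 and 9.3, then 9.1 and 8.94 in CD8 cells, without passing the test there.

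Spry2 differed from all other called genes in that CD8 cells alone passed the test of the response. It encodes an inhibitor of receptor signalling to ERK, as Dusp6 does at another step. It read 2.96 and 3.21 at 0 h and 3.41 and 3.59 at 18 h in CD4 cells, against 2.91 and 3.15, then 5.41 and 5.24 in CD8 cells. Only the stimulated CD8 arrays stood apart among the WT arrays, and the interaction was 1.88 ± 0.31 (adjusted p = 0.0292). A second Spry2 probe set, only a little dimmer, gave 0.37, so that the size rests on the probe set used.

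Ehd1, which encodes an ATPase of endocytic recycling, read 6.57 and 5.42 at 0 h in CD4 cells and 8.63 and 8.47 at 18 h, while CD8 cells read 8.41 and 8.47 at 0 h and 8.33 and 7.74 at 18 h. CD8 cells thus held at rest about the level that CD4 cells reached after stimulation, and the interaction was -2.96 ± 0.43 (adjusted p = 0.0184), or -2.29 to -1.03 in 3 dimmer probe sets. Snx9, a sorting nexin of endocytosis, showed a like order, with 4.67 and 4.57, then 7.54 and 7.79 in CD4 cells and 5.80 and 5.83, then 6.41 and 6.85 in CD8 cells. The CD8 arrays were the higher at 0 h and the lower at 18 h, and the interaction was -2.23 ± 0.29 (adjusted p = 0.0184).

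Mcoln2 and Chst15 were the 2 genes that rose in CD4 and fell in CD8 cells. Mcoln2, which encodes an endolysosomal cation channel, went from 4.73 and 4.04 to 5.62 and 5.28 in CD4 cells and from 6.53 and 6.71 to 5.50 and 5.56 in CD8 cells. At 0 h the lineages did not overlap, and at 18 h they did. Chst15, a sulfotransferase of chondroitin sulfate, went from 6.75 and 6.26 to 7.58 and 7.15 in CD4 and from 7.63 and 7.82 to 6.69 and 7.02 in CD8 cells. Their interactions were -2.15 ± 0.39 and -1.72 ± 0.28. A dimmer probe set of Chst15 gave -2.46.

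Akr1c18, a hydroxysteroid dehydrogenase, rose from 5.16 and 5.37 to 7.40 and 7.80 in CD4 cells and read 4.76 and 5.12, then 4.98 and 5.4 in CD8 cells (interaction -2.09 ± 0.29). Slc16a1, which encodes a transporter of lactate, rose by 2.33 ± 0.17 in CD4 and by 0.95 ± 0.17 in CD8 cells. Rcl1, a factor of ribosome assembly, and Ndufaf4, which helps to assemble respiratory complex I, had interactions of -1.13 ± 0.19 and -1.10 ± 0.21. Tex15, Rilpl2, Msi2, Lrmp and Rxra, the last encoding a retinoid receptor, lay between -1.94 and -1.36. A second probe set of Rxra gave -0.16, one of Ndufaf4 -0.42 and a dim one of Msi2 -0.16, so that for these the size depended on the probe set.

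**Figure D2:**
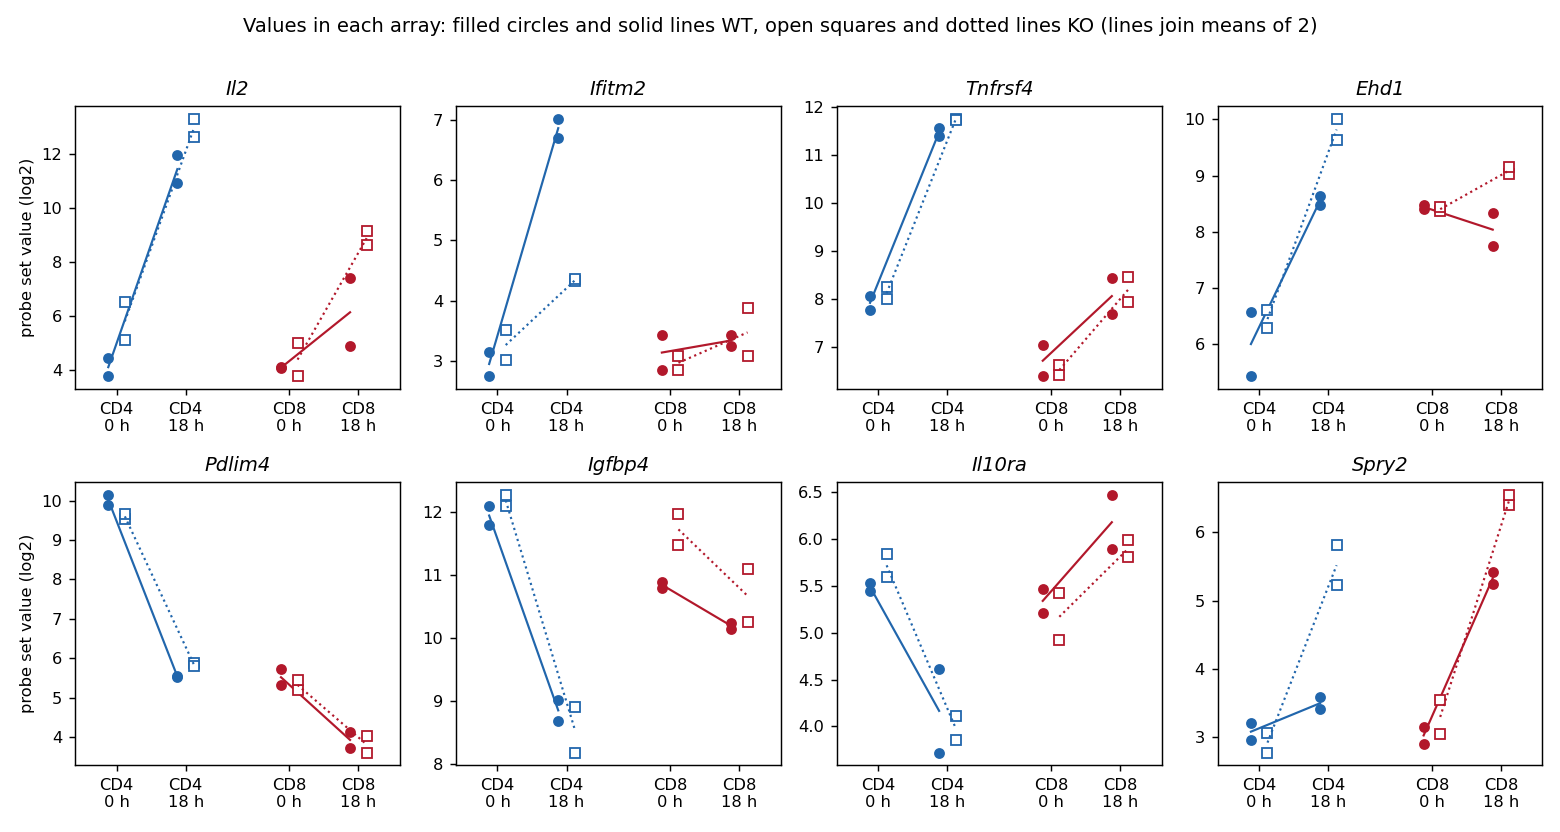
Log2 probe set values of 8 genes in each of the 16 arrays, by lineage (CD4 blue, CD8 red) and time, with filled circles and solid lines for WT and open squares and dotted lines for KO arrays (each line joins the means of 2 arrays). Il2, Ifitm2, Tnfrsf4 and Ehd1 rose more in CD4 cells, Pdlim4, Igfbp4 and Il10ra fell more in CD4 cells, and Spry2 rose in WT CD8 cells from 2.91 and 3.15 to 5.41 and 5.24.

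Pdlim4, which encodes a PDZ and LIM domain protein of the actin cytoskeleton, had the most positive interaction among the 46 called genes and the smallest adjusted p. It read 10.14 and 9.90 at 0 h and 5.55 and 5.53 at 18 h in CD4 cells, and 5.32 and 5.72, then 4.13 and 3.73 in CD8 cells. Resting CD4 arrays stood far above all other WT arrays, and the stimulated CD4 arrays came down to about the level of resting CD8 cells. It fell in both lineages, by 4.48 ± 0.20 and 1.59 ± 0.20, and the interaction was 2.88 ± 0.28 (adjusted p = 0.00264). Resting CD8 arrays lay close to the array medians of 5.24 to 5.43, and how far this low level limited their fall was not tested.

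A few genes with large positive interactions had like levels at rest in both lineages. Pglyrp2, an amidase that cuts peptidoglycan, went from 8.36 and 8.25 to 4.04 and 3.99 in CD4 cells and from 7.89 and 8.02 to 6.50 and 6.07 in CD8 cells. Smpdl3a, a phosphodiesterase related to sphingomyelinase, went from 10.57 and 10.26 to 6.16 and 5.92 and from 9.90 and 10.12 to 8.62 and 7.55. Gm20559, a predicted gene with no function given here, went from 9.98 and 10.18 to 5.79 and 5.67 and from 10.60 and 10.25 to 9.15 and 7.90. Each fell in both lineages and further in CD4 cells, and the groups did not overlap at 18 h. Their interactions were 2.61 ± 0.37, 2.45 ± 0.39 and 2.45 ± 0.45.

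Drc1 was the single gene of the 46 that fell in CD4 and rose in CD8 cells. It encodes a part of the dynein regulatory complex of cilia, with no role in T cells stated here. Its values were 6.13 and 6.22, then 5.25 and 5.11 in CD4 cells and 5.33 and 5.4, then 6.77 and 7.0 in CD8 cells, so that the order of the lineages was turned at 18 h. The interaction was 2.52 ± 0.38 (adjusted p = 0.0246).

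Il10ra, a chain of the receptor for the inhibitory cytokine IL-10, read 5.53 and 5.45, then 4.61 and 3.72 in CD4 cells and 5.47 and 5.21, then 6.47 and 5.89 in CD8 cells, with an interaction of 2.17 ± 0.40 (adjusted p = 0.041). The fall in CD4 cells passed the test and the change in CD8 cells did not, and dimmer probe sets of the gene gave 0.89 and -0.22. Itgb7, which encodes the integrin chain of gut-homing receptors, fell from 10.46 and 10.78 to 7.47 and 7.62 in CD4 and from 10.81 and 10.51 to 9.55 and 9.12 in CD8 cells (interaction 1.75 ± 0.28). Tlr1, a receptor for bacterial lipopeptides, and Itga6, an integrin chain that binds laminin, had interactions of 1.99 ± 0.37 and 1.30 ± 0.22, and the adhesion molecule L1cam and the activin-like receptor Acvrl1 had 2.09 ± 0.31 and 2.07 ± 0.34. A dim second probe set of L1cam gave 0.01.

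Gimap4, a GTPase of lymphocytes, was the brightest of the 46 genes. In CD4 cells it read 12.81 and 12.75 at 0 h and 10.88 and 10.14 at 18 h, and in CD8 cells 12.47 and 12.42, then 12.50 and 11.95. It fell in CD4 cells by 2.27 ± 0.25, and its change of -0.22 ± 0.25 in CD8 cells passed no test. The interaction was 2.05 ± 0.36 (adjusted p = 0.0323), and a second probe set gave 2.38.

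Sit1, which encodes a membrane adaptor that dampens T cell receptor signals, fell from 8.71 and 8.45 to 4.99 and 4.50 in CD4 cells and from 7.44 and 7.80 to 5.88 and 5.41 in CD8 cells, and the order of the lineages turned between the times. Rcan3, a regulator of calcineurin, fell from 7.51 and 7.74 to 6.17 and 6.42 in CD4 cells and read 6.23 and 6.35, then 6.72 and 6.67 in CD8 cells. The interactions of these signalling regulators were 1.86 ± 0.29 and 1.73 ± 0.25.

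Igfbp4, which binds insulin-like growth factors, read 12.09 and 11.80, then 8.68 and 9.02 in CD4 and 10.80 and 10.89, then 10.24 and 10.15 in CD8 cells. Of its 6 probe sets the brightest gave 2.44 ± 0.41, and the 5 others that name it gave 0.73 to 2.75. Lgmn, a lysosomal endopeptidase, read 6.85 and 6.23, then 4.87 and 4.48 in CD4 cells and between 3.53 and 4.20 in all CD8 WT arrays, with an interaction of 2.21 ± 0.35. Psmb10, a catalytic subunit of the immunoproteasome, read 10.43 and 10.48, then 8.64 and 8.53 in CD4 cells and 10.69 and 10.61, then 10.48 and 10.10 in CD8 cells, with 1.51 ± 0.25.

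The remaining genes with a positive interaction were Ggt5, Gata1, Adh1, Ncmap, Fam189b, Cnp, Tspyl4, 1600014C10Rik, Ndrg3 and Arid5a, between 1.13 and 2.04. Dimmer probe sets gave 0.27 and 0.01 for 1600014C10Rik and 0.55 for Ndrg3. Gata1 encodes a transcription factor of red cell and platelet precursors. It read between 4.34 and 5.71 in all WT arrays, and the mean over 10 erythroid and platelet markers lay between 3.64 and 4.06 in them, with 0 of 10 called in the interaction. Adh1, an alcohol dehydrogenase, read 7.57 and 7.58 in resting CD4 cells and between 3.44 and 4.90 in all other WT arrays.

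A further question is at which time the lineages differed. Before stimulation 80 genes were higher in CD8 than in CD4 WT cells (0.645%) and 79 lower (0.637%), and after it 288 were higher (2.32%) and 119 lower (0.960%). With the replicate block within lineage and genotype the totals were 249 at 0 h and 664 at 18 h. These comparisons share arrays with the interaction and describe its parts.

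Of the 18 genes with a negative interaction, 12 did not pass the test at 0 h and were higher in CD4 cells at 18 h, as Il2, Ifitm2, Tnfrsf4, Dusp6 and Jak2 were. Another 5 were higher in CD8 cells at 0 h and passed no test at 18 h (Ehd1, Mcoln2, Chst15, Msi2 and Slc16a1), and Snx9 went from higher in CD8 to higher in CD4 cells. Of the 28 with a positive interaction, 16 passed no test at 0 h and were higher in CD8 cells at 18 h, Igfbp4, Il10ra, Gimap4, Psmb10 and Spry2 among them. A set of 8 were higher in CD4 cells at 0 h and passed no test at 18 h, including Lgmn, L1cam, Acvrl1, Rcan3 and Itga6. Pdlim4 and Adh1 were higher in CD4 cells at both times, Sit1 turned from higher in CD4 to higher in CD8, and Gata1 passed neither test. In resting CD8 WT arrays Lgmn, Adh1, Ncmap and Acvrl1 read only 3.53 to 4.58, below the array medians. Whether a fall in CD8 cells could be seen from such levels was not tested.

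**Figure D3:**
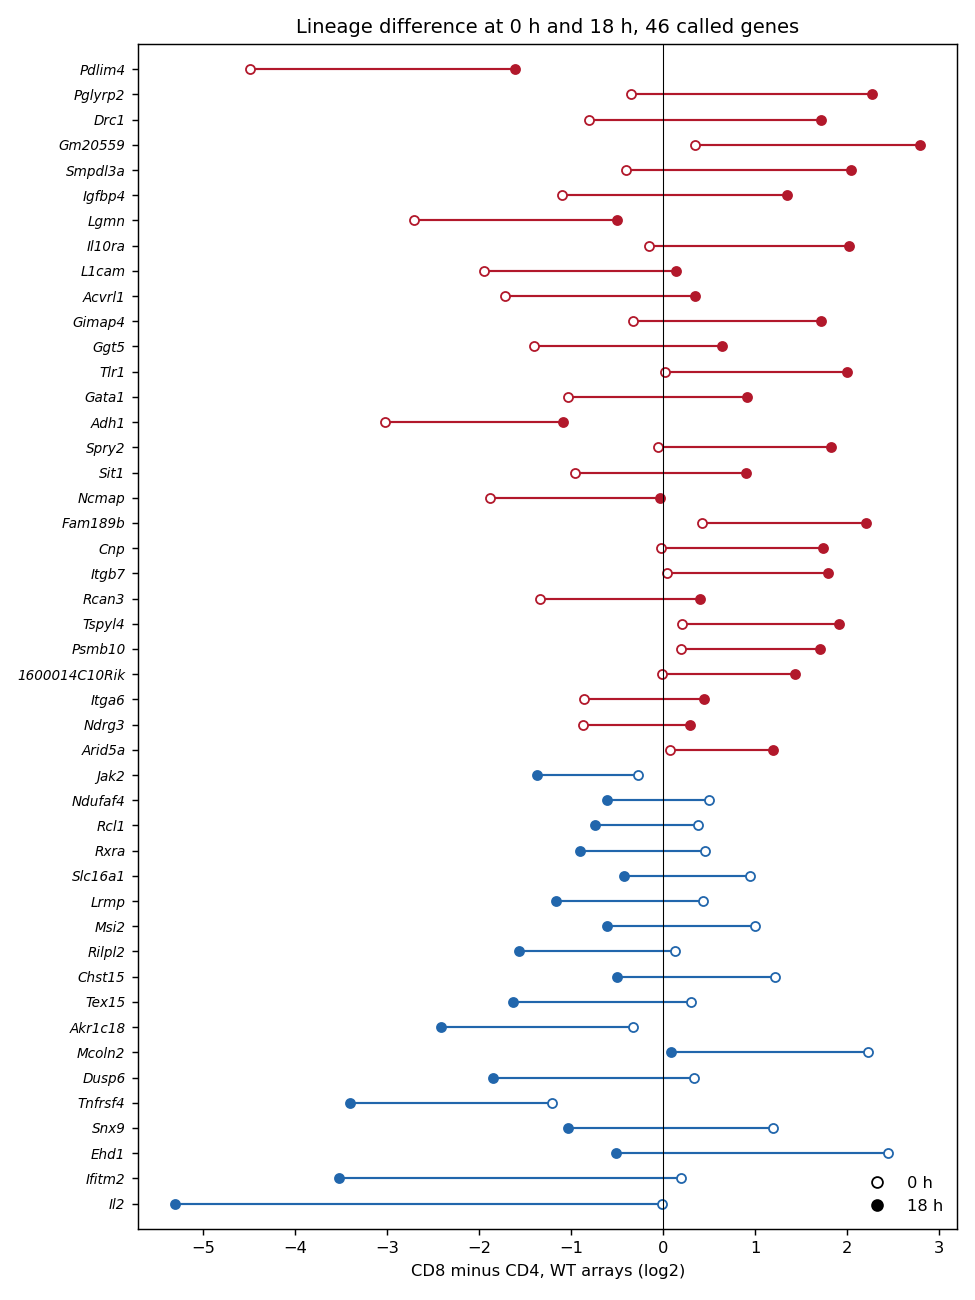
CD8 minus CD4 difference (log2) of the 46 called genes in WT arrays at 0 h (open circles) and 18 h (filled circles), with a line joining the 2 times, red for a positive and blue for a negative interaction. Pdlim4 moves from -4.50 to -1.61 and Il2 from -0.01 to -5.30, and most red genes cross or leave 0 to the right.

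Gene lists were used to describe the activation program, and none was tested as a list. A list is described by its calls, the median interaction of its measured members and the share of members above 0, and over all 12394 genes this median was 0.03 and the share 53.5%. The medians below kept their sign under quantile normalization and under centring of the arrays, unless a sentence says otherwise. With single arrays left out the sign turned for MCM and replication genes (-0.38 to 0.23), mitosis markers (-0.14 to 0.51), G1 and S phase genes (-0.06 to 0.33), amino acid and stress genes (-0.34 to 0.01), effector transcription factors (-0.03 to 0.11), Stat and Socs genes (-0.20 to 0.09), glycolysis (-0.11 to 0.07), the GABP subunits (-0.24 to 0.17) and the CD4, CD8, B cell, myeloid and NK cell markers. Without both CD4 WT arrays of replicate 1 the amino acid and stress list was at 0.10 and the Stat and Socs list at 0.13. These medians thus have no settled direction.

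The list of naive T cell genes and Foxo1 targets, the program that T cells shut down on activation, had 1 of 27 members called higher (Gimap4) and 0 lower. Of its members 21 fell in CD4 and 15 in CD8 WT cells, and 0 rose in either. The mean over the list went from 10.12 and 10.38 to 8.46 and 8.41 in CD4 and from 10.16 and 10.19 to 9.47 and 8.78 in CD8 cells, so that both stimulated CD8 arrays stood above both stimulated CD4 arrays. The median interaction was 0.73 (0.54 to 1.09 with single arrays left out), and 23 of 27 members (85.2%) lay above 0. Il7r, the receptor chain for the survival cytokine IL-7, read 11.91 and 11.69, then 7.49 and 7.12 in CD4 cells and 11.57 and 11.75, then 10.82 and 8.64 in CD8 cells. Its interaction of 2.57 ± 0.78 did not pass the test (adjusted p = 0.224), and the stimulated CD8 arrays differed by more than 2 log2 units. The Gimap family gave 0.18 for Gimap1, 0.90 for Gimap3, 1.03 for Gimap6 and 1.51 for Gimap7, with Gimap4 alone called.

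The list of memory-like genes had 1 of 32 called higher (Itgb7) and a median of 0.72 (0.53 to 0.94 with single arrays left out). Vim, the intermediate filament protein vimentin, read 10.94 and 10.95, then 7.63 and 7.12 in CD4 cells and 11.11 and 11.04, then 11.05 and 10.55 in CD8 cells. Its interaction of 3.29 ± 0.70 missed the threshold (adjusted p = 0.0722). Lgals3, a galectin, read 5.68 and 5.16, then 6.29 and 5.85 in CD4 and 4.70 and 5.24, then 8.91 and 8.99 in CD8 cells, at 3.33 ± 0.68 (adjusted p = 0.0639). For both genes the lineages stood apart at 18 h without overlap.

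Interferon-stimulated genes, which limit viruses, had 0 of 39 called higher and 1 lower (Ifitm2). Their median interaction was 0.78, with 30 members above 0 and 9 below. The mean over the list went from 8.06 and 8.65 to 7.20 and 6.69 in CD4 cells and from 8.90 and 8.12 to 7.90 and 7.34 in CD8 cells. The lineages overlapped at 0 h and stood apart at 18 h, and the median interaction lay between 0.34 and 1.02 with single arrays left out. Ifit3 (2.24 ± 0.90), Usp18 (1.96 ± 0.72), Zbp1 (1.89 ± 0.54) and Ifit1 (1.88 ± 0.88) had the largest positive values, none of which passed the test. Ifitm2, Ifitm3 and Ifitm1, neighbours of one family, were at -3.72, -1.46 and -1.01, of which the first alone was called.

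Antigen processing and MHC class I genes, which display peptides to T cells, had 1 of 17 called higher (Psmb10), a median of 0.58 (0.32 to 0.75 with single arrays left out) and 14 members above 0. The other immunoproteasome subunits Psmb9 and Psmb8 had 1.10 and 0.88, the peptide transporter gene Tap1 0.71, H2-D1 0.69, and B2m and H2-K1 0.58 each, and none of these passed the test. The list mean was 10.16 and 10.52, then 9.97 and 9.69 in CD4 cells and 10.63 and 10.56, then 10.72 and 10.37 in CD8 cells. In CD4 cells 7 members fell, in CD8 cells 0 did.

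The T cell receptor complex and its proximal signalling factors had 1 of 30 called higher (Sit1) and a median of 0.38, or 0.19 to 0.51 with single arrays left out. In CD4 cells 18 members fell and in CD8 cells 14. The kinases Tec and Txk had interactions of 1.53 ± 0.32 and 1.48 ± 0.69 and the lipid kinase Dgka 1.23 ± 0.25, with adjusted p of 0.0664, 0.559 and 0.0639. The CD3 chains Cd3d, Cd3g and Cd3e lay at 0.49, 0.49 and 0.20.

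The Myc network and ribosome assembly list, the growth program, had 0 of 48 called in the interaction, although 35 members rose in CD4 and 24 in CD8 WT cells. Its median interaction was -0.50 (-0.51 to -0.38 with single arrays left out), and 40 members lay below 0. The list mean went from 8.28 and 8.38 to 9.49 and 9.44 in CD4 cells and from 8.50 and 8.45 to 9.15 and 9.24 in CD8 cells. The 2 CD8 arrays were above the CD4 arrays at 0 h and below them at 18 h. Nolc1 and Nop58, which act in nucleolar RNA assembly, were at -1.06 ± 0.38 and -1.60 ± 1.65, Ncl at -0.86 and Myc itself at -0.81.

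Early response factors, which are induced within the first hours of receptor signalling, had Spry2 called higher and Dusp6 called lower of 31 members. Their median was -0.32 and 24 members lay below 0. It ran from -0.56 to -0.23 with single arrays left out and was -0.59 without both CD4 WT arrays of replicate 1. Spred1 and Spry1, which like Spry2 inhibit signalling to ERK, were at -1.49 ± 0.34 and -1.36 ± 0.44 and thus opposite in sign to Spry2, with adjusted p of 0.0916 and 0.271. Jun spread widely between replicates, with 8.51 and 5.88 at 0 h in CD4 and 4.94 and 8.96 in CD8 cells, and its interaction of 2.38 ± 2.10 did not pass the test. NF-kB factors and inhibitors had 0 of 23 called and a median of -0.17.

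**Figure D4:**
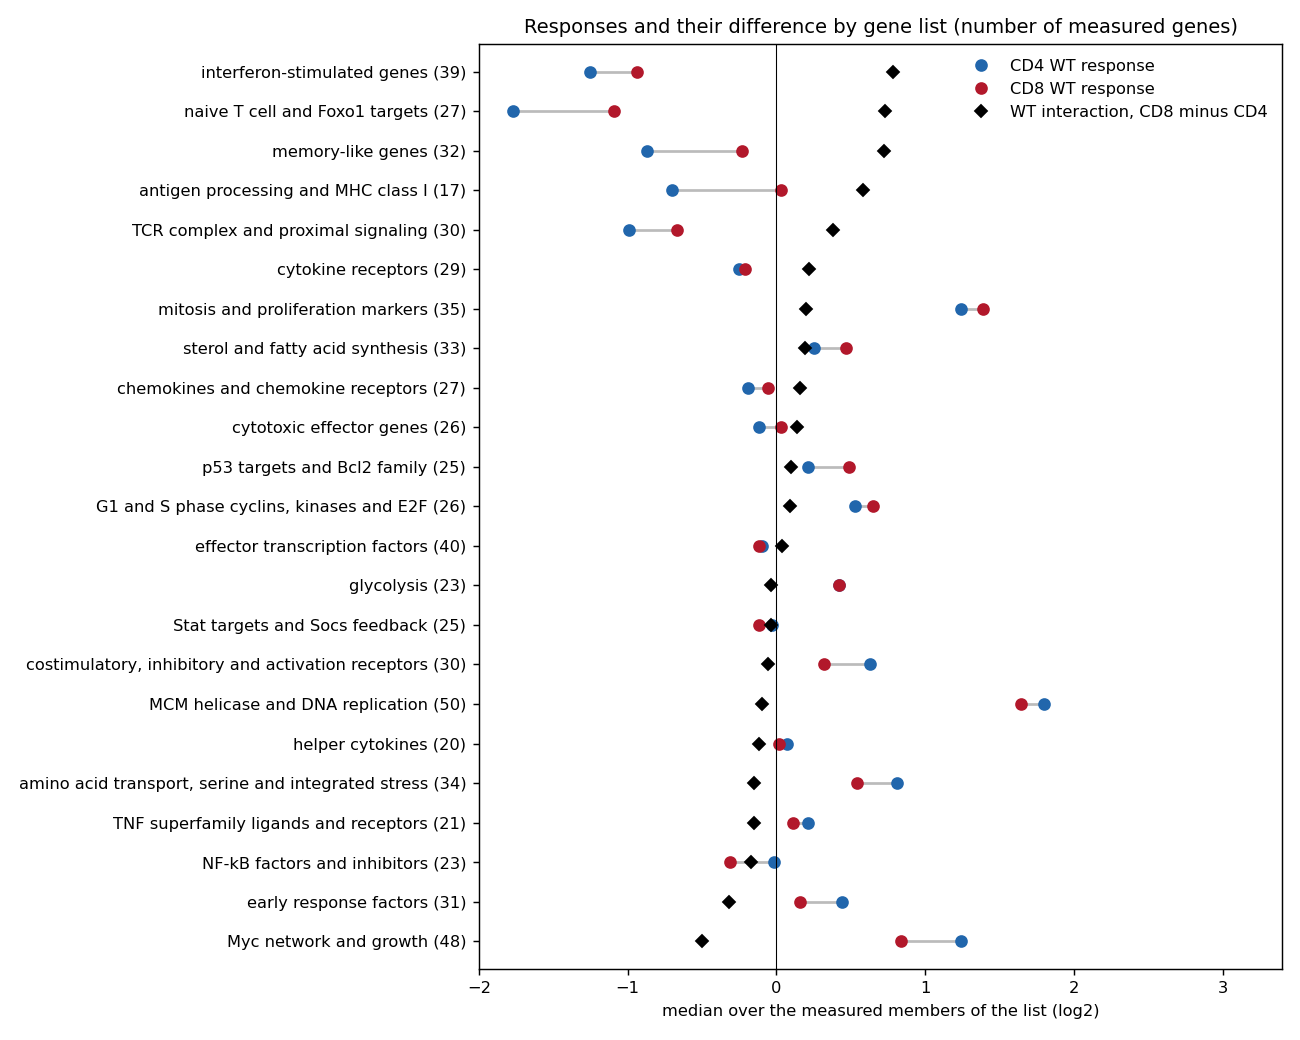
Median over the measured members of 23 gene lists (their number in brackets) of the CD4 response (blue), the CD8 response (red) and the interaction (black diamonds), all in WT cells and log2. The interaction medians run from -0.50 for the Myc network to 0.78 for interferon-stimulated genes, and a median of differences need not equal the difference of the medians.

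Among 26 cytotoxic effector genes 0 passed the test of the interaction and the median was 0.14. Ctsw, which encodes a protease of cytotoxic cells, came closest, at 1.37 ± 0.27 with an adjusted p of 0.0579, and was called in KO cells at 1.99. The largest values had large errors. Gzmb, which encodes granzyme B, read 4.94 and 3.92, then 8.96 and 6.10 in CD4 cells and 5.66 and 5.66, then 11.81 and 11.75 in CD8 cells. Ccl3, a chemokine, read 3.83 and 2.80, then 8.38 and 5.90 in CD4 and 2.86 and 3.26, then 10.29 and 9.94 in CD8 cells. In both the stimulated CD8 arrays lay above the stimulated CD4 arrays, of which replicate 1 was the higher by more than 2 log2 units. Replicate 1 was also the higher in stimulated CD4 KO cells, with 8.36 and 5.69 for Gzmb and 7.62 and 6.23 for Ccl3. In the same arrays Cd8a read 4.49 and 4.73, Cd8b1 6.52 and 5.79 and Klrd1 5.32 and 4.29. Whether CD8 cells in the CD4 sorts played a part was not tested. The interactions were 3.01 ± 1.23 for Gzmb, 3.23 ± 0.93 for Ccl3 and 1.88 ± 1.61 for Ifng, with adjusted p of 0.458, 0.191 and 0.88.

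Helper cytokines had Il2 called lower and 0 of the other 19 called, with a median of -0.12. Il3 read 2.49 and 2.77, then 5.35 and 2.95 in CD4 cells and between 2.53 and 3.25 in CD8 cells, so that 1 array stood apart behind its interaction of -0.99 ± 0.74. Il21 had an interaction of 0.93 ± 0.26 that did not pass the test, although it fell in CD4 cells by 1.09. Of 21 TNF superfamily ligands and receptors Tnfrsf4 was called lower and the median was -0.15.

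Cytokine receptors had Il10ra called higher and 0 lower of 29, at a median of 0.22. Il12rb1 and Il2rb, receptor chains for IL-12 and IL-2, were at -1.51 ± 0.32 and -1.35 ± 0.40, and Il18r1 at 1.34 ± 0.38, with adjusted p of 0.0717, 0.202 and 0.185. Among 25 Stat targets and Socs feedback genes Jak2 alone was called, while Socs3, an inhibitor of cytokine signalling, read 11.06 and 11.07, then 7.90 and 7.57 in CD4 and 10.45 and 10.09, then 9.66 and 8.57 in CD8 cells. Its interaction was 2.18 ± 0.47 (adjusted p = 0.0776). The median of this list was -0.04 and its sign turned when arrays were centred, as did those of glycolysis (-0.04, with Slc16a1 called lower of 23) and of the 2 GABP subunits (-0.04).

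Costimulatory, inhibitory and activation receptors (0 of 30 called, median -0.06, or 0.00 with centred arrays), chemokines and their receptors (0 of 27, 0.16) and effector transcription factors (0 of 40, 0.04) lay near the median of all genes. Runx1, which encodes a transcription factor of T cell development, had the largest negative value of the last list, -2.54 ± 1.12. It read 6.07 and 8.33 in resting CD4 cells, and the interaction did not pass the test. Bcl6 was at -1.66 ± 0.38 with an adjusted p of 0.0935, and Prdm1, which encodes a factor known to oppose Bcl6, was at 1.29 ± 0.30 with 0.0956.

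Of 50 MCM helicase and DNA replication genes 41 rose in CD4 and 43 in CD8 cells, 0 were called in the interaction and the median was -0.10. Stimulated CD8 replicates differed here, with list means of 8.88 and 9.55 against 9.31 and 9.03 in CD4 cells. Of 35 mitosis and proliferation markers 21 rose in CD4 and 23 in CD8, with a median interaction of 0.20, and G1 and S phase cyclins, kinases and E2F factors gave 0.09 and 0 of 26 called. Sterol and fatty acid synthesis (0.19, 0 of 33), amino acid transport, serine and integrated stress genes (-0.15, 0 of 34) and p53 targets with the Bcl2 family (0.10, 0 of 25) had no call either. These gave 0 calls in limma at the adjusted threshold, at which 46 genes of 12394 were called in all, while 1135 genes had an unadjusted p under 0.05.

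Lists of lineage and other cell types were read in the same way. Of 10 CD4 lineage markers Tnfrsf4 was called lower, and of 10 CD8 lineage markers 0 were called, with medians of -0.02 and 0.07, whose signs turned under centring and quantile normalization respectively. B cell, myeloid and dendritic, NK cell, regulatory T cell and thymocyte markers had 0 called of 17, 19, 11, 9 and 9, with medians of 0.11, 0.16, 0.12, 0.18 and 0.28. Without both CD4 WT arrays of replicate 1 the medians of these 5 lists were -0.24, -0.19, -0.16, -0.01 and 0.05.

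The size of the response as a whole was compared on genes chosen in the KO arrays, which the WT contrast did not use. The choice is not free of the lineage difference, as the lineage with the larger KO response weighed more in it. The WT and KO interactions correlated at 0.68 across genes, and replicate differences were correlated between the genotypes, as given below. The choice also used CD8 KO 18 h replicate 2, with a 3' to 5' control difference of 3.76, and was not repeated without it. The shares below were not counted over all genes. For 504 genes that rose by over 1 log2 unit in KO cells (mean of both lineages), the median response was 1.68 in CD4 WT and 1.29 in CD8 WT cells, and 80.6% had the smaller response in CD8. For 648 genes that fell by as much, the medians were -1.63 and -1.03, and 85.2% had the smaller response in CD8. Between single arrays the rise ran from 1.51 to 1.89 in CD4 and from 1.04 to 1.55 in CD8 cells. These ranges overlapped, and CD8 WT 18 h replicate 2 gave the larger CD8 values. The fall ran from -1.69 to -1.54 in CD4 and from -1.21 to -0.80 in CD8 cells, with no overlap. A smaller share of responding CD8 cells and a smaller change per cell cannot be told apart here.

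The same interaction in KO cells rests on 8 arrays that the WT contrast did not use, although both come from one fit with a shared spread. Across genes, the difference of replicates 2 and 1 was also correlated between WT and KO arrays of one lineage and time. It was 0.44 and 0.45 in CD4 (0 h, then 18 h) and 0.45 and 0.39 in CD8. The KO interaction is thus no independent replicate of the WT interaction. It was higher in CD8 for 345 genes (2.78%) and lower for 180 (1.45%), 525 in all (4.24%), or 635 and 338 with the replicate block. Without CD8 KO 18 h replicate 2, whose 3' to 5' control difference of 3.76 was the highest of all arrays, 299 were higher and 191 lower, and 695 and 485 were called when the other array of that group was dropped instead. The counts were 133 and 72 without CD4 KO 0 h replicate 1, 147 and 71 without CD4 KO 0 h replicate 2, 96 and 46 without CD4 KO 18 h replicate 2, and, for CD8 KO 0 h, 124 and 83 when its replicate 1 was dropped and 221 and 81 when its replicate 2 was.

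Of the 46 genes called in WT, 45 had the same sign in KO cells, 38 were also called there and 42 had an unadjusted p under 0.05, against a same sign in 66.6% of all genes. Without CD8 KO 18 h replicate 2 these were 45 and 37 for the sign and the call. Of the 525 genes called in KO, 513 had the same sign in WT. Called in both with the largest values were Pdlim4 (2.88 in WT and 2.25 in KO), Pglyrp2 (2.61 and 2.82), Drc1 (2.52 and 3.55), Smpdl3a (2.45 and 2.86) and Gm20559 (2.45 and 2.83) on the positive side. On the negative side they were Ehd1 (-2.96 and -2.69), Snx9 (-2.23 and -2.72), Tnfrsf4 (-2.20 and -1.94), Dusp6 (-2.19 and -2.89) and Mcoln2 (-2.15 and -4.64). List medians in KO were 0.87 for naive genes, 0.65 for memory-like genes, 1.08 for interferon-stimulated genes, 0.55 for antigen processing, -0.88 for early response factors and -0.85 for the Myc network, beside 0.00 over all genes.

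The difference between the KO and WT interactions was tested directly, and limma called 0 of 12394 genes (0%), with 352 at an unadjusted p under 0.05 and a smallest adjusted p of 0.295. Among the 46 genes 7 had an unadjusted p under 0.05 for this difference, Ifitm2, Mcoln2, Msi2, Ggt5, Spry2, Tex15 and L1cam. Ifitm2 read 3.01 and 3.51, then 4.32 and 4.35 in CD4 KO cells and 2.85 and 3.08, then 3.07 and 3.87 in CD8 KO cells, an interaction of -0.56 ± 0.40 against -3.72 in WT (adjusted p of the difference = 0.4). Msi2, the exception in sign, was at 0.04 ± 0.27 in KO. Spry2 read 5.22 and 5.81 in stimulated CD4 KO cells, above 3.41 and 3.59 in WT, and its KO interaction was 0.58 ± 0.31. Il2 read 12.62 and 13.31 in stimulated CD4 KO cells and 8.62 and 9.15 in CD8 KO cells, with an interaction of -2.66 ± 1.01 that did not pass the test (adjusted p = 0.191).

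**Figure D5:**
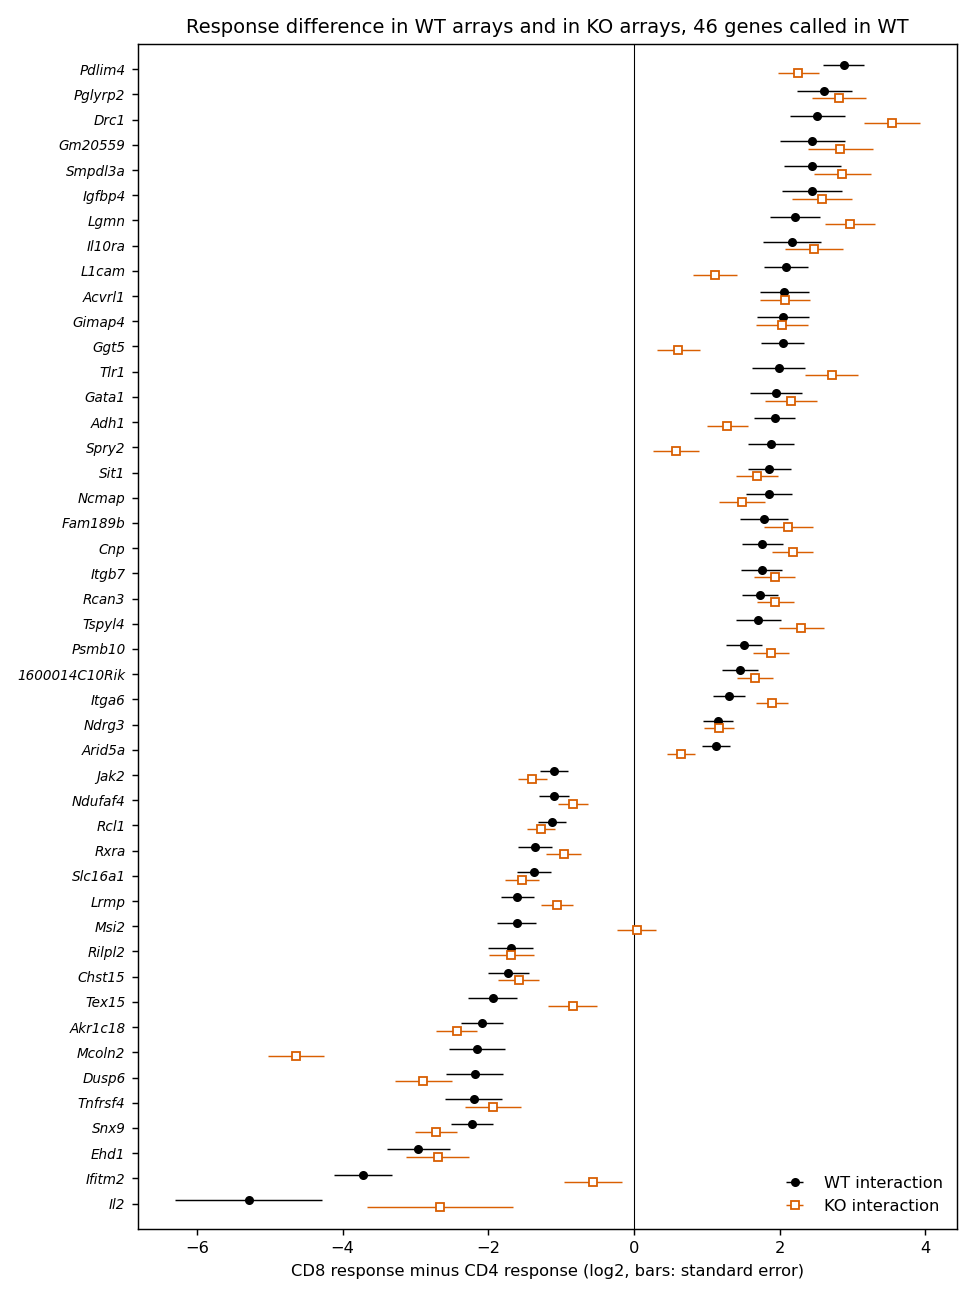
Interaction (CD8 response minus CD4 response, log2) of the 46 genes called in WT, in WT arrays (black circles) and KO arrays (orange squares), with bars for the standard error. In 45 of 46 genes both lie on the same side of 0, with Msi2 at 0.04 in KO as the exception, and Ifitm2, Ggt5 and Spry2 lie closer to 0 in KO.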

How the data were processed

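Naive CD4 and CD8 T cells of WT and KO mice were profiled at 0 h and 18 h on 16 Affymetrix arrays, 2 per group as labelled. Values of 22690 probe sets were deposited on the log2 scale. The submitters' processing notes name affy and limma, and the summary method and versions were not given in the sources used here. Array medians lay between 5.24 and 5.43. No further normalization was applied, and normalization between arrays would hide a change of total RNA per cell. Precision is limited by the number of arrays.

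Probe sets were named through the platform annotation and RefSeq (GRCm38.p6): 20393 named 1 gene, 691 several and 1606 none. For each of 12394 genes the brightest probe set, by its mean in all 16 arrays, was used, and 4958 genes had more than 1.

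The 8 group means were estimated in limma 3.58.1 (R 4.3.3, lmFit and eBayes, two-sided, 8 residual and 4.32 prior degrees of freedom). Calls needed a Benjamini-Hochberg adjusted p under 0.05 over all genes and a fold over 1.5. The steps were run on simulated data with noise drawn independently for each array, which lacked the correlation of replicates given below. The members, the 32 gene lists and the tests were chosen with earlier results of these data known. Genes were named as lineage markers, as the 12 highest and 12 lowest calls, as list members (at most 4 called and 2 uncalled of each), as the largest per response class and as those called in both genotypes. Others are named to resolve a small count or to describe a family and were chosen after their values were seen, as were the promoters shown.

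Per the labels, the cells of 1 sort were divided between 0 h and 18 h. Across genes the difference of replicates 2 and 1 was correlated between these times at 0.27 and 0.34 in CD4 WT and KO and at 0.27 and 0.56 in CD8 WT and KO, so that numbers were taken to pair arrays within a lineage and genotype, and values with this replicate block stand beside the counts they move. Between lineages the correlations lay between -0.60 and -0.12. Alternatives covered the arrays in the fit, centring, quantile normalization, a brightness filter, the probe set rule, the fold threshold, the prior, array weights, replicate blocks and left-out arrays.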

Additional observations from a re-analysis of the deposited data

Results flagged for a closer look

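The stimulation response differed between CD8 and CD4 cells by a test of the interaction itself in limma. In WT cells 28 genes were higher (0.226% of the 12394 tested) and 18 lower (0.145%). In KO cells these were 345 (2.78%) and 180 (1.45%). The direct test of KO against WT interaction called 0 genes, so the unlike counts are no measure of a difference between the genotypes. No group held enough arrays for a test of single arrays against their group.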

How the results depend on the processing

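With 2 arrays a group, the counts of calls moved with many settings. For the 46 called genes, the only ones recomputed singly, 0 of 1412 values turned sign and 759 kept their call, while several list medians turned sign, as given with the lists. WT interaction counts (28 higher and 18 lower) were 12 and 2 from the WT arrays alone, 17 and 7 with the median of all probe sets, 1 and 1 in a test against 1.5-fold, and 0 and 2 without both CD4 WT arrays of replicate 1. Lower calls were 6 with centred arrays, and higher calls were 64 with array weights. With the replicate block within lineage they were 121 and 51, within lineage and genotype 114 and 46, and with the block by number and the CD8 numbers crossed, added after seeing the data, 115 and 46. Leaving out single arrays gave 1 to 77 and 1 to 27. KO interaction counts (345 and 180) were 172 and 75 from the KO arrays alone, 27 and 11 against 1.5-fold, 175 and 100 with array weights, 223 and 109 with the 3 arrays whose 3' to 5' difference was highest left out, 639 and 352, 635 and 338, and 654 and 364 under the same 3 blocks, and 96 to 695 and 46 to 485 with single arrays left out. Their difference gave 0 calls, and 0 to 4 with single arrays left out. The CD4 response (3250 calls) gave 1319 against 1.5-fold and 1899 without both CD4 WT arrays of replicate 1, and 2494 to 3545 with single arrays left out. The CD8 response (1885) gave 371 against 1.5-fold and 709 to 2213. Lineage differences at 0 h (159) and 18 h (407) gave 49 and 64 against 1.5-fold, 96 and 201 without both CD4 WT arrays of replicate 1, 257 and 702, 249 and 664, and 241 and 673 under the 3 blocks, and 64 to 207 and 128 to 573 with single arrays left out. At 0 h the brighter genes alone gave 101. The block changed no other call by over 1.5 times. The causes of these shifts were not tested.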
